A study of Mus musculus with 4 samples.

Results

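The 10 genes described here encode transcription factors of the blood stem cell: Tal1, Lyl1, Lmo2, Gata2, Runx1, Erg, Fli1, Meis1, Hlf and Mecom. They were chosen by name, and each was read from its probe set in the deposited log2 values, the one with the highest mean over the arrays where a gene had more than 1. All 10 were measured, of 19938 genes in all. The study hybridised sorted bone marrow RNA from C57BL/6 mice to 4 Affymetrix arrays, all of it from the LSK fraction, which is lineage-negative and positive for Sca-1 and Kit. There were 2 arrays of Hdac3-null LSK/Flt3- cells, in which Hdac3, a histone deacetylase gene, was removed by Vav-Cre (genotype Vav-Cre/Hdac3Flox/-, with 1 floxed and 1 null allele). Single arrays stood for the wild-type (WT) fractions, LSK/Flt3+ and LSK/Flt3-, named WT Flt3+ and WT Flt3- from here on. LSK cells gain the receptor Flt3 as they leave the stem cell state. Vav-Cre acts from early in blood cell development, and sorted cells were pooled from 5 to 30 mice. No label ties the null replicates to separate mice, and the age of the mice is not given, so the p-values cover the spread of these arrays alone, part of which may be technical.

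Blood stem cells are held in their state by a small group of factors that bind together at enhancers and act on one another's genes. Tal1 and Lyl1 are basic helix-loop-helix (bHLH) proteins that pair with E proteins, Lmo2 bridges them to Gata2, and Runx1, Erg and Fli1 often bind at the same enhancers. Meis1, Hlf and Mecom are linked to self-renewal and quiescence, and their RNA declines as stem cells mature.

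The RefSeq promoter table (build GRCm38.p6) held 14 promoters for 8 of the 10 genes, each running from 250 bases before to 50 bases after a transcription start. Lmo2 and Fli1 had no entry. The sequences below are shown because Mecom, Hlf, Runx1 and Gata2 were, with Fli1, the genes farthest apart between null and WT Flt3- cells, and because Mecom has more than 1 start and more than 1 probe set. Each runs 5′ to 3′ on the gene's strand, and capitals mark letters matching motifs of the factor families themselves.
Mecom, upstream start (chr3:30509710-30510009, minus strand): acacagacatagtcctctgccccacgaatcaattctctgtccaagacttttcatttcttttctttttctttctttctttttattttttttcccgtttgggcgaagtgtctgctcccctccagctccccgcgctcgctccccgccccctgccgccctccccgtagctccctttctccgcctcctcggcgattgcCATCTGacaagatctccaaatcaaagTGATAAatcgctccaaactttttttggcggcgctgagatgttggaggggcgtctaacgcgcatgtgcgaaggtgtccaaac
Mecom, downstream start (chr3:30013155-30013454, minus strand): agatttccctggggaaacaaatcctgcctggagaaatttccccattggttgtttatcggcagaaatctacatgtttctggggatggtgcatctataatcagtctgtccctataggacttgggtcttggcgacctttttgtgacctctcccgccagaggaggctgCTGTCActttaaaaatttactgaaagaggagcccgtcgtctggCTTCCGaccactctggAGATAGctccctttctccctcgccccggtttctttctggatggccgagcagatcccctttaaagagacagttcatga
Hlf (chr11:90390868-90391167, minus strand): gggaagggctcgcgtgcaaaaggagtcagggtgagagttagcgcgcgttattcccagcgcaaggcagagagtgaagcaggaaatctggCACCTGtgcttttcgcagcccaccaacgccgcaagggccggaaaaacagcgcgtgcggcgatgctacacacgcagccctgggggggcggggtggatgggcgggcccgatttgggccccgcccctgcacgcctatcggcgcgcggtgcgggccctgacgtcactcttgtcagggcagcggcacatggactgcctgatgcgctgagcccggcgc
Runx1, upstream start (chr16:92826025-92826324, minus strand): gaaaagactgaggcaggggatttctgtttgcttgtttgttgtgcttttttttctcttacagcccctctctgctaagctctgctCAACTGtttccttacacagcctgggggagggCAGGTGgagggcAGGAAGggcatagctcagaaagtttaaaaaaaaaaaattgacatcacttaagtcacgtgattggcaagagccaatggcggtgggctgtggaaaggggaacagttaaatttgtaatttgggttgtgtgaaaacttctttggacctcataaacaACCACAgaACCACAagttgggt
Gata2, downstream start (chr6:88198414-88198713, plus strand): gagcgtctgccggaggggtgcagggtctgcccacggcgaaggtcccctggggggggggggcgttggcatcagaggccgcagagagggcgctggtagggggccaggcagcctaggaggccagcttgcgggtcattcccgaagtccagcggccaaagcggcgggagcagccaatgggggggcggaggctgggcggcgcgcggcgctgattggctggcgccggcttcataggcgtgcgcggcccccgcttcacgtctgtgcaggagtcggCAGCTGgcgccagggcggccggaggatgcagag

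The motifs were searched on both strands. The GATA motif was AGATAA, with T also allowed as its first letter and G as its last. The bHLH motif was the E-box CAGNTG, and the ETS motif was AGGAAG, with C also allowed as its first letter. RUNX factors were represented by TGTGGT, and a match to the variant TGCGGT was counted with them. MEIS factors were represented by TGACAG, and the PAR bZIP family of Hlf by TTANNTAA. The upstream Runx1 promoter held 2 RUNX matches, first bases 29 and 37 after the start, as well as 2 E-boxes and 1 ETS match. Both Mecom promoters held a GATA match, 31 and 27 bases before the upstream and downstream starts. The upstream one also held an E-box, and the downstream one an ETS and a MEIS match. The Hlf promoter and the downstream Gata2 promoter held 1 E-box each.

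No match overlapped another in these windows. Over all 32851 promoters in the table, 29.8% held a GATA match, 51.4% an E-box, 46.5% an ETS match, 22.4% a RUNX match, 19.2% a MEIS match and 6.00% a PAR bZIP match. Of the 14 promoters of the factor genes, 4 held a GATA match, 7 an E-box, 5 an ETS match and 2 each a RUNX, a MEIS and a PAR bZIP match. In 4 of the 14, among them the upstream Gata2 and downstream Runx1 promoters, none of these letters were found. A match is a description of the letters and not evidence of binding.

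Hdac3 had log2 levels of 5.71 and 5.04 on the null arrays, against 6.33 in WT Flt3+ and 6.18 in WT Flt3- cells. No source used here says whether its probes lie in the deleted part, so these levels do not check the labels. Kit, which helps define the LSK fraction, was at 10.77 and 10.36 on the null arrays, 10.11 in WT Flt3+ and 10.25 in WT Flt3- cells. Flt3 RNA was at 7.84 and 7.02 on the null arrays, 10.07 in WT Flt3+ and 9.18 in WT Flt3- cells, and Ly6a, the gene of Sca-1, was not named by the annotation. The arrays differed in scale. The median over all genes was 0.09 higher in null than in WT Flt3- cells and 0.05 higher than in WT Flt3+ cells. Centring the arrays on their medians turned these into -0.04 for each. Without centring, the medians over genes with a mean level of at least 6, which every factor gene reached, were 0.005 and 0.01. Differences given below relative to the median of all genes use the 0.09 and 0.05. In WT Flt3+ cells the macrophage gene Mrc1 was at 8.62, against 4.70 in WT Flt3- cells. All 12 members of the macrophage and dendritic cell list were higher there than in WT Flt3- cells (56.6% of all genes). Cd5l was higher by only 0.01, and Cd5l and Axl were higher still on null replicate 1. The list's median level was 6.02 in WT Flt3+ and 4.77 in WT Flt3- cells, and 4.83 and 4.65 on the null arrays. The part of these macrophage genes in any difference from WT Flt3+ cells was not tested. Whether a gene stood above background was not recorded in the deposited values.

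The factor genes differed in direction in Hdac3-null cells. Against WT Flt3- cells, Gata2, Runx1 and Fli1 were higher and Mecom and Hlf lower, each by at least 0.5 on the log2 scale and on both null arrays, while Tal1, Lyl1, Lmo2, Erg and Meis1 lay within 0.13. None of the 10 passed the limma test over all genes in either comparison (adjusted p = 1 for each gene). Over all genes, 0.0201% passed as higher and 0.00% as lower against WT Flt3- cells, and 0.0351% and 0.281% against WT Flt3+ cells. At an unadjusted p under 0.05, Mecom was lower than in WT Flt3- cells, as were 1.30% of all genes, and 0 factor genes were higher (1.10% of all genes). At that threshold Gata2 and Fli1 were higher than in WT Flt3+ cells, as were 1.13% of all genes, and 0 were lower (2.31%). Both comparisons use the same null arrays, so they are not independent of each other.

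**Figure D1:**
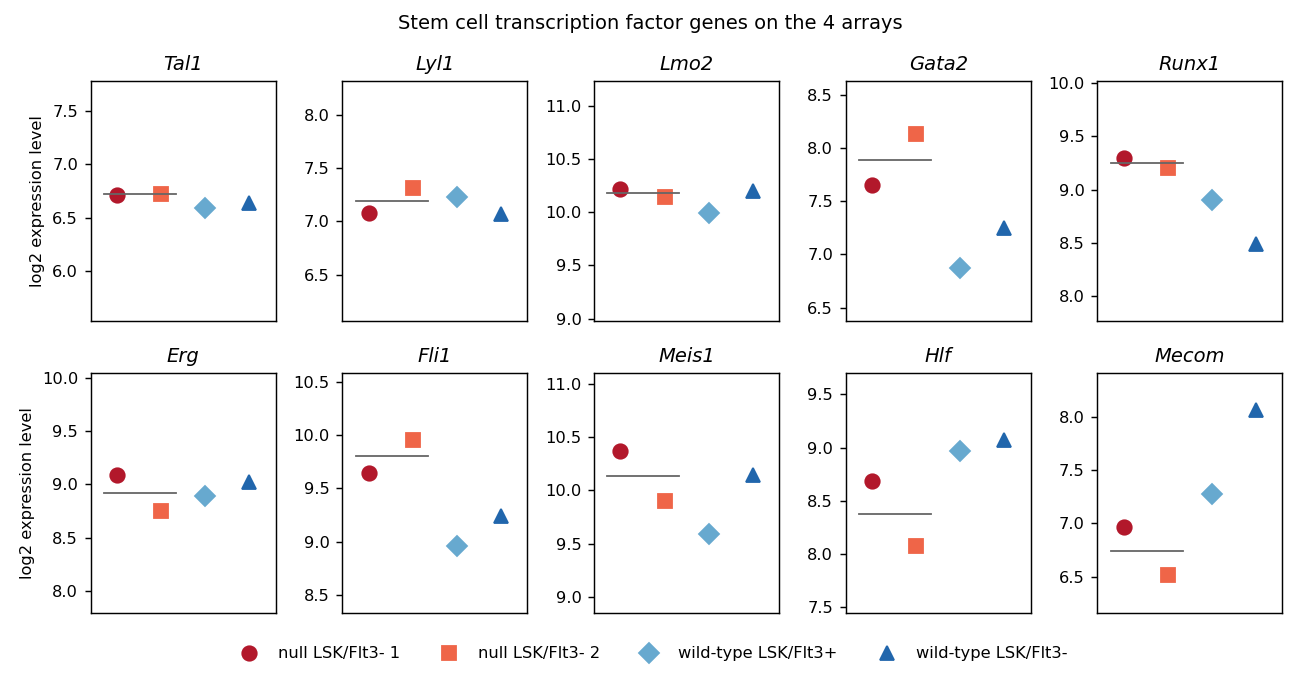
Log2 expression level (vertical axis, a window of equal height in each panel) of the 10 factor genes on the 2 null LSK/Flt3- arrays, the WT Flt3+ array and the WT Flt3- array, with a grey line at the null mean. Gata2, Runx1 and Fli1 lie higher on both null arrays than on both wild-type arrays, and Mecom and Hlf lie lower.

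Tal1 was the flattest of the 10. Its log2 level was 6.72 and 6.73 on the null arrays, 6.59 in WT Flt3+ cells and 6.64 in WT Flt3- cells. Tal1 is required for blood stem cells to form and later for red cell and platelet development. The null arrays were above both wild-type arrays. The log2 difference from WT Flt3- cells was 0.08 (95% interval -0.69 to 0.86 from limma), or -0.01 relative to the median of all genes, and that from WT Flt3+ cells was 0.13, or 0.08 relative to it. After the arrays were centred on their medians the difference from WT Flt3- cells was -0.05.

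Lyl1, the closest relative of Tal1 and able to stand in for part of its work in adult stem cells, had levels of 7.07 and 7.32 on the null arrays. It was at 7.22 in WT Flt3+ and 7.07 in WT Flt3- cells, so the groups overlapped. The log2 difference from WT Flt3- cells was 0.13 (95% interval -0.67 to 0.93) and that from WT Flt3+ cells -0.03 (-0.83 to 0.77). Lmo2, the LIM-domain bridge of the complex, stood at 10.22 and 10.14 on the null arrays, 9.99 in WT Flt3+ and 10.19 in WT Flt3- cells. The null arrays lay on either side of WT Flt3- cells, with a difference of -0.02 (95% interval -0.74 to 0.71). The intervals of all 3 genes hold differences in either direction as large as those of Gata2 or Fli1 from WT Flt3- cells, described next.

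Gata2 was higher in null cells. It encodes a zinc finger factor needed for stem cell survival and for mast cell and early megakaryocyte development. Its level was 7.65 and 8.13 on the null arrays, against 6.88 in WT Flt3+ and 7.25 in WT Flt3- cells. Both null arrays were above both wild-type arrays, and the null replicates were 0.48 apart. The log2 difference was 0.64 ± 0.38 (SE; limma, adjusted p = 1) from WT Flt3- cells, or 0.54 relative to the median of all genes. From WT Flt3+ cells it was 1.01 ± 0.38 (SE; limma, unadjusted p = 0.0234, adjusted p = 1), a 2.02-fold higher level and the largest difference of the 10 genes from that fraction.

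Runx1 was the gene most alike on the null pair among those that stood apart. It encodes the DNA-binding partner of Cbfb and is needed for the first stem cells to arise from endothelium, and in the adult for platelet and lymphoid development. Its level was 9.30 and 9.20 on the null arrays, against 8.90 in WT Flt3+ and 8.49 in WT Flt3- cells. Both null arrays were above both wild-type arrays, and the wild-type arrays themselves were 0.41 apart. The log2 difference was 0.76 ± 0.35 (SE; limma, unadjusted p = 0.0542, adjusted p = 1) from WT Flt3- cells, 0.67 relative to the median of all genes.

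Of the ETS factor genes, Fli1 lay above both wild-type arrays and Erg overlapped them. Fli1, which drives megakaryocyte maturation, was at 9.64 and 9.95 on the null arrays, against 8.96 in WT Flt3+ and 9.24 in WT Flt3- cells. Both null arrays were above both wild-type arrays, by log2 differences of 0.84 ± 0.35 (SE; limma, unadjusted p = 0.0367, adjusted p = 1) from WT Flt3+ cells and 0.55 ± 0.35 (SE; limma, adjusted p = 1) from WT Flt3- cells. Erg, which maintains adult stem cells, was at 9.09 and 8.75 on the null arrays, 8.89 in WT Flt3+ and 9.03 in WT Flt3- cells. Its null arrays enclosed both wild-type levels, and the difference from WT Flt3- cells was -0.11 (95% interval -0.91 to 0.69). The difference between Fli1 and Erg in their shift was not tested.

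Meis1 differed more between the wild-type fractions than between null and WT Flt3- cells. It encodes a homeodomain partner of Hox and Pbx proteins that keeps stem cells quiescent. Its level was 10.36 and 9.89 on the null arrays, 9.58 in WT Flt3+ and 10.14 in WT Flt3- cells. The null arrays were on either side of WT Flt3- cells, with a log2 difference of -0.01 (95% interval -0.79 to 0.77), and both were above WT Flt3+ cells, by 0.54 ± 0.35 (SE; limma, adjusted p = 1).

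Hlf was lower in null cells than in either wild-type fraction. Hlf encodes a bZIP factor whose RNA is a mark of the most immature blood cells. Its level was 8.68 and 8.07 on the null arrays, against 8.97 in WT Flt3+ and 9.07 in WT Flt3- cells. Both null arrays were below both wild-type arrays, and replicate 2 carried most of the difference. The log2 difference from WT Flt3- cells was -0.39 on replicate 1, with a mean over both of -0.70 ± 0.39 (SE; limma, adjusted p = 1). From WT Flt3+ cells it was -0.59 ± 0.39 (SE; limma, adjusted p = 1).

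Mecom had the largest difference of the 10 from WT Flt3- cells. It encodes the zinc finger protein Evi1 and its longer form with Mds1, and is needed for long-term self-renewal. Its level was 6.97 and 6.51 on the null arrays, against 7.28 in WT Flt3+ and 8.06 in WT Flt3- cells. Both null arrays were below both wild-type arrays, and both were at least 2-fold below WT Flt3- cells, as were 0.381% of all genes. The log2 difference was -1.32 ± 0.38 (SE; limma, unadjusted p = 0.00553, adjusted p = 1) from WT Flt3- cells, with a 95% interval of -2.16 to -0.49, so that WT Flt3- cells were 2.50-fold higher. From WT Flt3+ cells, where Mecom itself was lower, it was -0.54 ± 0.38 (SE; limma, adjusted p = 1).

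The other Mecom probe set gave a less even picture. It stood at 6.91 and 5.53 on the null arrays, against 6.14 in WT Flt3+ and 7.04 in WT Flt3- cells. Null replicate 1 was therefore only 0.13 below WT Flt3- cells and above WT Flt3+ cells, while replicate 2 was below both. The mean log2 difference from WT Flt3- cells was -0.82 on this probe set, and 0.08 from WT Flt3+ cells. The platform's annotation lists each probe set under a curated RefSeq transcript of its own and both under 1 shared predicted transcript, and which of the 2 promoters shown above feeds which probe set was not tested.

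**Figure D2:**
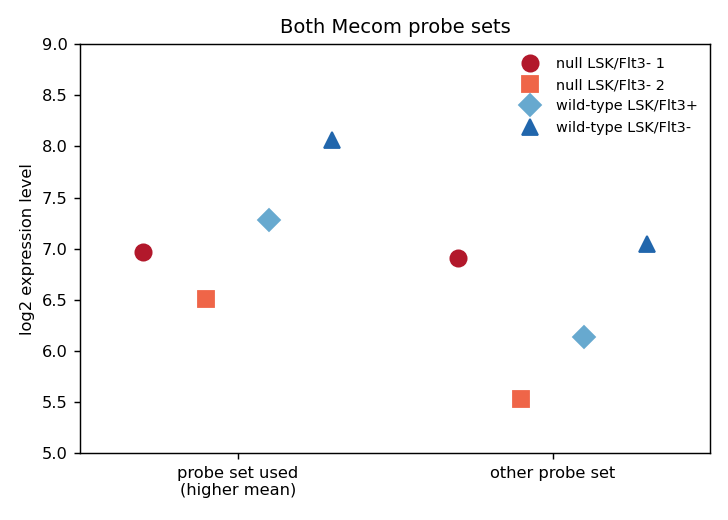
Log2 expression level (vertical axis) of Mecom on its 2 probe sets, for each of the 4 arrays (points). Wild-type LSK/Flt3- cells are the highest on both probe sets, and null replicate 1 is at 6.97 on the probe set used and 6.91 on the other, where it lies close to WT Flt3- cells at 7.04.

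Set side by side, 4 of the 10 genes (Gata2, Runx1, Tal1 and Fli1) had both null arrays above both wild-type arrays, against 23.0% of all genes, and 2 (Mecom and Hlf) had both below, against 11.7%. Without a test for a list, these shares say nothing particular of the factor genes. Tal1 left this count under quantile normalization, cyclic loess and centring on array medians, while Gata2, Runx1, Fli1, Hlf and Mecom stayed under each of these, and Erg joined the genes below both wild-type arrays with centred arrays. Mecom left when its probe sets were averaged. Under the 3 rescalings the shares of all genes were 14.2% to 17.4% above and 18.0% to 19.0% below. Among only genes with a mean level of at least 6, the counts stayed at 4 and 2. The shares there were 18.4% above and 16.9% below. Without null replicate 1, 5 of the 10 were above (35.7% of all genes) and 3 below (33.2%), and without null replicate 2, 7 were above (53.8%) and 2 below (24.9%). Against WT Flt3- cells alone, 5 of the 10 were higher on both null arrays (41.3% of all genes) and 2 were lower on both (19.9%). Against WT Flt3+ cells alone, 6 were higher on both (35.0% of all genes) and 2 were lower on both (25.1%). Besides Mecom, 0 factor genes were 2-fold apart from either wild-type array on both null arrays (0.251% of all genes higher than WT Flt3-, and 0.261% higher and 1.08% lower than WT Flt3+). At a mean difference of at least 0.5 in the same direction on both arrays, 3 were higher (5.45% of all genes) and 2 lower (3.86%). Against WT Flt3+ cells the counts at that size were again 3 higher (5.37%), with Meis1 in place of Runx1, and 2 lower (5.25%).

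The median log2 difference of the 10 genes was 0.04 from WT Flt3- cells, against 0.09 for all genes, and 0.16 from WT Flt3+ cells, against 0.05. Over genes with a mean level of at least 6, which all 10 reached, the medians were 0.005 and 0.01. On null replicates 1 and 2 the median of the 10 genes was 0.07 and 0.02 from WT Flt3- cells and 0.21 and 0.14 from WT Flt3+ cells. The null replicates themselves differed by a median of 0.33 (absolute log2 difference) over the 10 genes and 0.27 over all genes. Replicate 1 was the higher one for 6 of the 10 (64.9% of all genes) and the lower one for 4 (35.0%), and 0 were 2-fold apart (1.36% of all genes higher and 1.46% lower). Null replicate 2 was 0.49 from WT Flt3- cells by this measure, against 0.18 for all genes, and null replicate 1 was 0.31, against 0.27. Among the 5 genes that stood apart from WT Flt3- cells, replicate 2 was the farther one for Gata2, Fli1, Hlf and Mecom but not for Runx1.

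**Figure D3:**
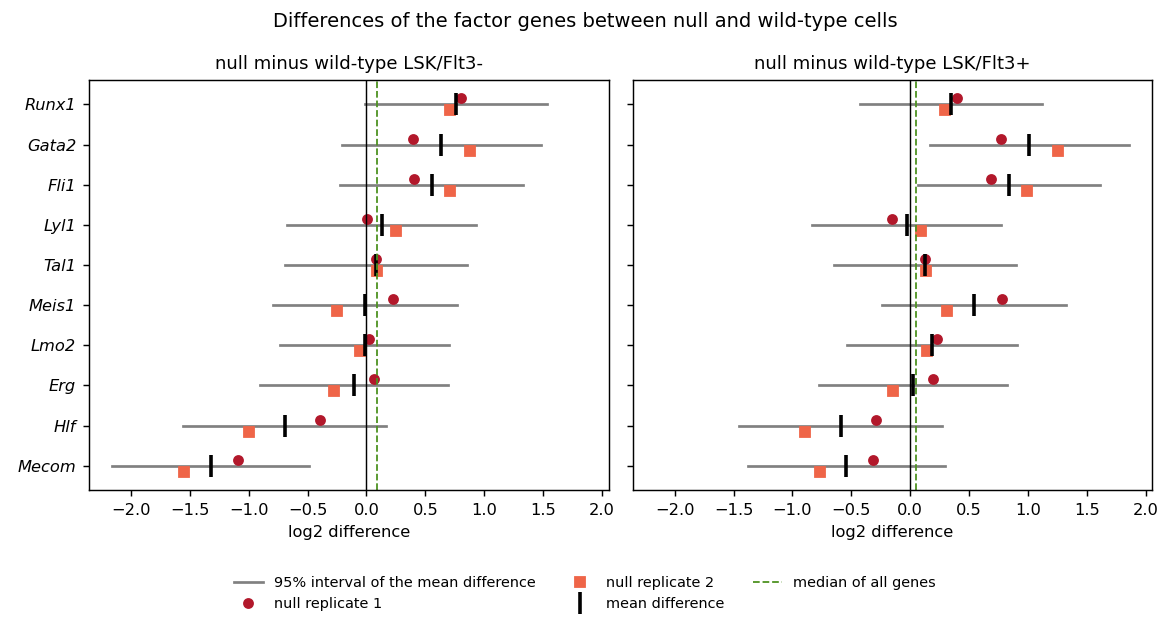
Log2 difference (horizontal axis) of each factor gene between null and WT Flt3- cells (left) and WT Flt3+ cells (right), for null replicates 1 and 2 (points), their mean (tick) and its 95% interval from limma (bar), with the median of all genes as a dashed line. The interval leaves out 0 for Mecom on the left and for Gata2 and Fli1 on the right, before any adjustment over the 19938 genes.

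Between the wild-type fractions, 8 of the 10 factor genes were lower in LSK/Flt3+ than in LSK/Flt3- cells, against 43.1% of all genes, on 1 array each and without a test, and 2 were higher (56.6%). The median log2 difference was -0.17, against 0.04 for all genes. Mecom, at 7.28 in LSK/Flt3+ and 8.06 in LSK/Flt3- cells, differed by -0.78, and Meis1 by -0.56. These were the only ones of the 10 at least 0.5 lower, a size reached by 2.90% of all genes, and 0 were at least 0.5 higher (5.35%). None was 2-fold apart (0.923% of all genes higher, 0.176% lower). Gata2 was at -0.38 and Fli1 at -0.29, while Runx1 went the other way, at 0.41, and Lyl1 was at 0.16. For Gata2 and Fli1 the null arrays lay on the far side of LSK/Flt3- cells from LSK/Flt3+ cells. For Mecom the null arrays lay on the far side of LSK/Flt3+ cells, and for Runx1 they were above both.

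Of 19 listed partners of these factors, 18 were measured. None passed limma over all genes in either comparison (0 of 18), and the median log2 difference from WT Flt3- cells was -0.10, against 0.09 for all genes. Ldb1, which dimerises to join Lmo2 complexes, was at 8.67 and 8.98 on the null arrays, 8.70 in WT Flt3+ and 8.76 in WT Flt3- cells. Cbfb, the partner of Runx1, was at 9.36 and 9.09 on the null arrays, 9.10 in WT Flt3+ and 9.30 in WT Flt3- cells. For both genes the null and wild-type levels overlapped. Zfpm1, a cofactor of GATA factors, and Pbx3, a partner of Meis1, had mean log2 differences from WT Flt3- cells of -0.55 and -0.54, about the size of that of Fli1 in the other direction. Zfpm1 was at 5.97 and 6.70 on the null arrays, 6.43 in WT Flt3+ and 6.89 in WT Flt3- cells, so that it overlapped the wild-type levels. Pbx3 overlapped them as well, at 5.21 and 4.92 on the null arrays, 5.21 in WT Flt3+ and 5.61 in WT Flt3- cells. Its levels were near the median of all probe sets, unlike those of Fli1. Tcf4, an E protein, was below both wild-type arrays, at 8.14 and 8.01 against 8.96 in WT Flt3+ and 8.43 in WT Flt3- cells, and had the only unadjusted p under 0.05 of the list (limma, unadjusted p = 0.0322 against WT Flt3+ cells, adjusted p = 1). Of the 4 Id genes, whose products block E proteins, Id2 was at 5.11 and 4.59 on the null arrays, 6.43 in WT Flt3+ and 5.12 in WT Flt3- cells (limma, adjusted p = 0.178 against WT Flt3+ cells). The other 3 Id genes were within 0.28 of WT Flt3- cells.

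Relatives from the same gene families gave a median of -0.06 from WT Flt3- cells, with 16 of 17 measured, 0 past limma over all genes. At an unadjusted p under 0.05 there were 0 against WT Flt3- cells (1.10% of all genes higher and 1.30% lower). Against WT Flt3+ cells there were 2, Ets1 and Ets2, both lower (2.31% of all genes). Of the 16, 0 were above both wild-type arrays (23.0% of all genes) and 4 below both (11.7%), among them Ets2 and Prdm16. Ets2, a further ETS gene, was at 5.17 and 6.06 on the null arrays, 6.72 in WT Flt3+ and 6.31 in WT Flt3- cells (limma, unadjusted p = 0.0237 against WT Flt3+ cells, adjusted p = 1). Its null arrays were below both wild-type arrays, unlike those of Fli1. Prdm16, the closest relative of Mecom and chosen here after its values were seen, was at 5.66 and 5.64 on the null arrays, 5.79 in WT Flt3+ and 6.32 in WT Flt3- cells. Its difference of -0.67 from WT Flt3- cells had an unadjusted p of 0.0701 by limma (adjusted p = 1).

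Among 20 other stem cell regulators, all measured, 10 were higher and 10 lower than in WT Flt3- cells (65.0% of all genes were higher and 34.9% lower by the mean), and 0 passed limma over all genes. Gfi1b, a repressor that restrains stem cell expansion and recruits Hdac-containing complexes, was at 7.52 and 7.93 on the null arrays, 8.10 in WT Flt3+ and 8.67 in WT Flt3- cells. Both null arrays were below both wild-type arrays, with a log2 difference of -0.94 ± 0.37 (SE; limma, unadjusted p = 0.0299, adjusted p = 1) from WT Flt3- cells. Mycn was above both wild-type arrays, at 7.12 and 6.92 against 6.15 in WT Flt3+ and 6.65 in WT Flt3- cells (limma, unadjusted p = 0.0333 against WT Flt3+ cells, adjusted p = 1).

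Of 24 listed targets of these factors, 22 were measured, with 12 higher and 10 lower than in WT Flt3- cells (65.0% and 34.9% of all genes), a median of 0.02, and 0 past limma over all genes in that comparison. Mpo, the neutrophil peroxidase gene and a Runx1 target, was above both wild-type arrays, at 12.12 and 12.30 against 11.47 in WT Flt3+ and 11.35 in WT Flt3- cells (log2 difference from WT Flt3- cells 0.86 ± 0.28, SE; limma, unadjusted p = 0.0117, adjusted p = 1). Cd34, a stem and progenitor surface gene, was below both, at 9.77 and 9.90 against 10.58 in WT Flt3+ and 10.34 in WT Flt3- cells. Against WT Flt3+ cells 1 target passed as lower: Csf1r, a monocyte and macrophage receptor gene, at 5.59 and 5.97 in null, 8.11 in WT Flt3+ and 5.77 in WT Flt3- cells. The macrophage genes that were high on the WT Flt3+ array stand beside that value, and their part in it was not tested.

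**Figure D4:**
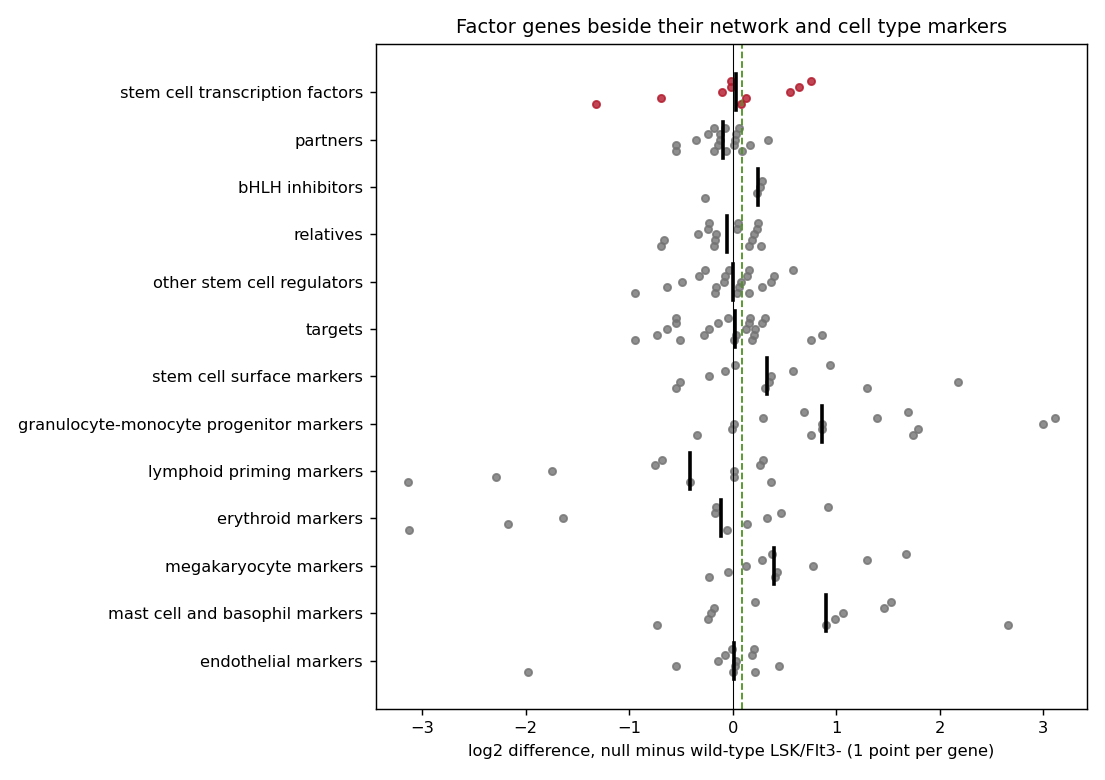
Log2 difference between null and WT Flt3- cells (horizontal axis) for every measured gene (point) of the factor genes, their network lists and cell type marker lists, with each list's median (black bar) and the median of all genes (dashed line). The factor genes spread from -1.32 to 0.76 around a median of 0.04, while the granulocyte-monocyte progenitor median is 0.86 and the lymphoid priming median -0.41.

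Markers of other cell types also differed between null and wild-type cells. In bulk samples, fewer cells of a type and less RNA per cell cannot be told apart. Of the granulocyte-monocyte progenitor markers, 9 of 14 were above both wild-type arrays (23.0% of all genes) and 0 below both (11.7%). Median levels were 7.29 and 7.75 on the null arrays, 7.04 in WT Flt3+ and 6.31 in WT Flt3- cells. Ms4a3 passed limma as higher (log2 difference 3.11, adjusted p = 0.0321, from WT Flt3- cells; 2.80, adjusted p = 0.00931, from WT Flt3+ cells). In the same list Csf1r and Ly86, genes also high in monocytes and macrophages, passed limma as lower than WT Flt3+ cells (log2 differences -2.34, adjusted p = 0.0250, and -2.50, adjusted p = 0.0147). Ly86 was at 5.00 and 5.40 on the null arrays, 7.70 in WT Flt3+ and 5.21 in WT Flt3- cells. Megakaryocytes use Gata2, Runx1 and Fli1. Of their markers, 7 of 10 were above both wild-type arrays (23.0% of all genes) and 0 below both (11.7%). Median levels were 7.03 and 7.73 on the null arrays, 6.55 in WT Flt3+ and 6.49 in WT Flt3- cells. The other 3 were Pf4, Ppbp and Itga2b. Pf4 was at 7.31 and 10.04 on the null arrays, 9.20 in WT Flt3+ and 8.72 in WT Flt3- cells. Null replicate 2 was higher than replicate 1 for 8 of the 10 (35.0% of all genes). Vwf, a platelet and stem cell gene, was at 6.93 and 8.11 on the null arrays, 5.78 in WT Flt3+ and 6.22 in WT Flt3- cells, and 0 megakaryocyte markers passed limma over all genes.

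Mast cell and basophil markers, a lineage that depends on Gata2, had a median log2 difference of 0.90 from WT Flt3- cells and -0.13 from WT Flt3+ cells. Their median levels were 5.89 and 6.43 on the null arrays, 5.65 in WT Flt3+ and 5.15 in WT Flt3- cells. Of the 11, 4 were above both wild-type arrays (23.0% of all genes) and 3 below both (11.7%), and 0 passed limma over all genes. The 3 below were Cpa3, Tpsb2 and Mcpt4, all mast cell protease genes. Tpsb2 and Mcpt4 lay under the median of all probe sets on every array. Their mean log2 differences from WT Flt3- cells were only -0.24 and -0.19. Cpa3 was at 7.25 and 7.62 on the null arrays, 7.71 in WT Flt3+ and 8.17 in WT Flt3- cells. Fcer1a, the member with the largest difference and an IgE receptor gene, was at 6.51 and 7.44 on the null arrays, 5.53 in WT Flt3+ and 4.31 in WT Flt3- cells. Replicate 2 was the higher of the null pair for Fcer1a, as for Gata2 and 9 of the 11 markers of this list (35.0% of all genes). It was also the higher one for 12 of the 14 granulocyte-monocyte progenitor markers (35.0% of all genes). Of the lymphoid priming markers, 4 of 11 (Dntt, Satb1, Flt3 and Il7r) were lower than in WT Flt3+ cells by limma over all genes (0.281% of all genes). Against WT Flt3- cells, sorted by the same Flt3 gate as the null cells, 0 of the 11 passed, as lower did 0.00% of all genes. At an unadjusted p under 0.05 by limma, 5 of the 11 were lower than in WT Flt3- cells (1.30% of all genes) and 0 higher (1.10%). Among the 5, Dntt differed by -3.14 and Satb1 by -2.29. The list was also higher in WT Flt3+ than in WT Flt3- cells, by a median of 0.89. The null arrays were below both wild-type arrays for 6 of the 11 (11.7% of all genes) and above both for 0 (23.0%). Median levels were 5.83 and 4.97 on the null arrays, 7.32 in WT Flt3+ and 6.66 in WT Flt3- cells. The part of these cell types in the levels of Gata2, Runx1, Fli1, Hlf and Mecom was not tested.

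Some red cell genes differed widely between the null replicates. Of the 10 erythroid markers measured, 8 were higher on null replicate 2 than on replicate 1 (35.0% of all genes). Alas2 (7.30 on replicate 1 and 6.33 on replicate 2) and Slc4a1 (5.25 and 5.11) were lower on replicate 2 (64.9% of all genes). The widest gap was that of Car1, and 0 of the 10 passed limma over all genes. Car1, a carbonic anhydrase gene of red cell precursors, was at 6.44 on null replicate 1 and 10.92 on replicate 2, against 11.37 in WT Flt3+ and 11.81 in WT Flt3- cells. Erythroid marker medians were 6.16 and 6.77 on the null arrays, 6.51 in WT Flt3+ and 7.02 in WT Flt3- cells. Of the 10, 2 were above both wild-type arrays (23.0% of all genes) and 2 below both (11.7%). Gata1, the family member that takes over from Gata2 in red cell precursors, was at 5.42 and 7.09 on the null arrays, 6.03 in WT Flt3+ and 6.42 in WT Flt3- cells, so its null arrays enclosed both wild-type levels. Endothelial cells also use Erg, Fli1, Tal1 and Lmo2. Their defining markers Cdh5 and Kdr were at 5.02 and 4.61 and at 4.71 and 4.11 on the null arrays, and at 4.90 and 4.55 in WT Flt3+ and 4.60 and 4.22 in WT Flt3- cells. The endothelial list had a median difference of 0.01 from WT Flt3- cells. Of its 12 members, 1 was above both wild-type arrays (23.0% of all genes) and 2 were below both (11.7%). Emcn, an endothelial surface gene also found on blood stem cells, was below both, at 4.67 and 4.24 on the null arrays, 7.09 in WT Flt3+ and 6.44 in WT Flt3- cells. It was the only member of the list to pass limma, as lower than WT Flt3+ cells (log2 difference -2.63, adjusted p = 0.0108). The B cell, T and NK cell, mature neutrophil and stromal lists had median differences from WT Flt3- cells of -0.28, 0.34, 0.35 and 0.09, and 0 of their members passed limma over all genes in either comparison.

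More stem cell surface markers lay above both wild-type arrays than below both, where Mecom and Hlf lay. Of 14 listed, 12 were measured. Of these, 7 were above both wild-type arrays (23.0% of all genes) and 1, Cd34, was below both (11.7%). The 7 included Hoxb5, a transcription factor gene, and Slamf1, a marker of long-term stem cells. Slamf1 was at 8.52 and 8.17 on the null arrays, 5.08 in WT Flt3+ and 6.16 in WT Flt3- cells. Slamf1 passed limma against WT Flt3+ cells (log2 difference 3.27 ± 0.36, SE; adjusted p = 0.00506) and not against WT Flt3- cells (2.18 ± 0.36, SE; adjusted p = 0.174). Cd48, which long-term stem cells lack, was another of the 7, at 10.41 and 10.54 against 10.15 in WT Flt3+ and 9.53 in WT Flt3- cells.

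For the 3 factor genes with the widest range over the arrays, the genes with the most similar profile were sought by Euclidean distance between levels centred on each gene's own mean, over 4 arrays and 8417 other genes with a mean level of at least 6. For Mecom they were Oasl2 (distance 0.165), Cyp2j9 (0.237) and Thap6 (0.246). For Gata2 they were Emilin2 (0.0986), Elovl7 (0.148) and Hp (0.156). For Hlf they were Nudt4 (0.0658), Il15 (0.116) and Cpq (0.141). With 4 arrays, a close profile among so many genes is a description only.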

How the data were processed

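Biotin-labelled RNA was hybridised by Affymetrix's standard procedure, per the labels' protocols. The values the authors deposited are log2 expression per probe set, made with RMA in affy 1.23, per the submitters' processing notes. The scaling they carry is not settled, since array medians were 5.60 and 5.30 (null replicates 1 and 2), 5.36 (WT Flt3+) and 5.32 (WT Flt3-). No source used here names a genome build, detection calls or a scan date.

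The platform's annotation gave 1 symbol for 21789 of 35556 probe sets, several for 1621 and none listed for 12146. Those without a single symbol were left out. This left 19938 genes, 999 of them with several probe sets, of which the one of highest mean stood for the gene.

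One linear model over the 4 arrays and 3 groups was fitted in limma 3.58.1 (R 4.3.3), with a mean-dependent prior (1 residual and 9.01 prior degrees of freedom). Each lone wild-type array is thus assumed to vary as the null pair does. Tests were two-sided, with Benjamini-Hochberg adjustment over all genes at 0.05, and the median standard error was 0.34. Precision is limited by how few arrays there are. The wild-type arrays were compared without a test. The fit was tested on simulated data.

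The 10 genes and the other 17 lists (202 genes, 186 measured) were chosen with earlier results of these data known. Of the rest, 3 lay only on a probe set with several symbols and 13 were not named by the annotation. The rule for naming genes allowed, from each other list, at most 6 with an unadjusted p under 0.05 in either comparison and both null arrays on the same side of WT Flt3-, by largest difference from it. Other list genes named (Ldb1, Cbfb, Zfpm1, Pbx3, Prdm16, Gata1, Alas2, Slc4a1, Cdh5, Kdr, Kit, Cpa3, Tpsb2, Mcpt4, Csf1r, Ly86 and Ets1) were chosen after their values were seen. So were Pf4, Itga2b, Hoxb5, Cd5l and Axl. Promoters were matched by symbol. Alternatives were 2 other variance priors, 3 rescalings, the mean of a gene's probe sets, a filter on mean level, and leaving out each null replicate.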

Additional observations from a re-analysis of the deposited data

How the results depend on the processing

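The count of factor genes past limma was 0 against each wild-type fraction under all 7 other settings with a test. The lowest adjusted p over those settings was 0.424 for Mecom against WT Flt3- cells and 0.744 for Gata2 against WT Flt3+ cells. Over them the difference from WT Flt3- cells ranged from -1.46 to -1.07 for Mecom, -0.83 to -0.68 for Hlf, 0.50 to 0.64 for Gata2, 0.62 to 0.77 for Runx1 and 0.42 to 0.57 for Fli1.

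Over all genes, 4 passed against WT Flt3- cells as reported, 25 with robust moderation, 108 with arrays centred on their medians and 2 after quantile normalization. Against WT Flt3+ cells 63 passed as reported, 114 with robust moderation, 114 after cyclic loess, 272 with centred arrays and 22 when genes with means under 6 were dropped, which tests fewer genes. The median of the 10 genes moved to -0.098 (WT Flt3-) and 0.068 (WT Flt3+) with centred arrays. Leaving out each null replicate, it ranged from 0.017 to 0.072 and from 0.14 to 0.21, without a test, since no residual degree of freedom was left.

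Signs turned against WT Flt3- cells for Tal1 (-0.050) and Lyl1 (-0.0051) with centred arrays and for Meis1 after cyclic loess (0.0017). Without null replicates 1 and 2, the differences from WT Flt3- cells were -0.25 and 0.22 for Meis1, -0.055 and 0.024 for Lmo2 and -0.28 and 0.065 for Erg. Against WT Flt3+ cells Erg turned after quantile normalization (-0.022) and with centred arrays (-0.064). Without null replicates 1 and 2, the differences from WT Flt3+ cells were -0.15 and 0.20 for Erg, 0.092 and -0.15 for Lyl1, 0.25 and -2.00 for Ermap, 2.14 and -0.17 for Ppbp, and 0.17 and -1.30 for Mcpt8. The cause was not tested. No paired analysis was possible because each wild-type fraction has 1 array and no shared replicate numbers.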
